A study of Mus musculus with 130 samples.

Results

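The genes described here were measured higher on day 2 of treatment with UNC0638 than in the vehicle control, and near or below the control level on days 4 and 14. UNC0638 is an inhibitor that competes with the substrate of the histone methyltransferases G9a (gene Ehmt2) and GLP (gene Ehmt1), partners that place methyl groups on lysine 9 of histone H3 at silent chromatin. Members were chosen by the measured levels in the vehicle control and the 3 UNC0638 libraries. A gene was a member when its deposited TPM plus 1 on day 2 was at least 2 times that of the vehicle control, and when the day 4 and day 14 values were each under 1.3 times the control. Some gene families and stress genes were left out by name, namely symbols starting with Hist, Zscan4, Usp17l, Xlr, Rhox, Pramel or mt-, and 17 listed genes of the amino acid and hypoxia responses. By this rule 257 of 52550 genes were members. Another 11 genes passed the numeric rule but carried a left-out symbol, among them Atf3, Chac1, Nupr1, Trib3, Ddit4, Txnip and Egln3.

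The study profiled mouse embryonic stem cells, which derive from the inner cell mass and renew themselves in culture, here on gelatin with serum and LIF. RNA-seq with the Smart-seq2 protocol, in which whole cDNA is amplified by PCR, gave 10 libraries, and each was the only library of its group. The rule used 4 of them, all from wild-type TT2 cells (strain C57BL/6xCBA): a vehicle control given DMSO, and cells given UNC0638 and collected on day 2, day 4 or day 14. The dose reads 250 nM in the titles and 250 µM in the treatment protocol. The labels give no collection day for the control library, and whether the inhibitor stayed on until day 14 is not stated in them. The 6 libraries that the rule did not use were untreated. From TT2 came G9a CM (genotype G9a-/- with the transgene Y1120V;Y1207F, 1 clone), a library labelled G9a/GLP DKO (G9a-/-;GLP-/-, 1 clone) and WT TT2. From J1 cells (strain 129S4/SvJae) came Dnmt3a/3b DKO (Dnmt 3a/3b-/-), then Dnmt1/3a/3b TKO (Dnmt1/3a/3b-/-), and WT J1. The promoter that drives the transgene is not given in the labels.

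Some of the best-counted members belong to known programmes. The integrated stress response slows general protein synthesis when amino acids run short or unfolded protein builds up, while the transcription factor ATF4 is translated more and turns on genes for amino acid synthesis, uptake and secreted stress signals. The hypoxia response, driven by HIF factors, turns on glucose uptake and glycolysis. Embryonic stem cells rely heavily on glycolysis and are sensitive to the supply of single amino acids.

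With 1 library a group there is no replicate spread and no test of a condition, and each comparison is between libraries. A count ratio here is a ratio of TMM-scaled CPM, in which library totals are adjusted for composition, and its interval is an exact 95% counting interval. The intervals cover the counting error of reads only, not a spread between replicates. The amplified reads carry no molecular identifiers and 1 molecule can give several, so the intervals may be too narrow even for counting error. In bulk RNA, more cells of a kind and more RNA per cell cannot be told apart. All 10 of 10 embryonic stem cell markers stood at 1 TPM or more in each of the 10 libraries. The summed level of 10 trophoblast markers was 90.5, 37.5, 23.6 and 51.5 TPM in the vehicle control and on days 2, 4 and 14, and that of 10 fibroblast or feeder markers was 6.12, 7.87, 6.13 and 4.69 TPM. Primitive endoderm markers summed to 16.0, 15.5, 14.7 and 21.7 TPM, neural markers to 239.9, 231, 234 and 232 TPM, and mesoderm markers to 4.70, 4.82, 3.22 and 4.57 TPM. A few genes made up most of some sums. Krt8 and Krt18 held most of the trophoblast sum in the vehicle control, at 46.9 and 31.65 TPM, against 5.25 and 10.8 TPM on day 2. Ascl2 of the same list went the other way, from 8.36 to 17.2 TPM. Stmn2 and Tubb3 held most of the neural sum, at 110 and 124 TPM in the vehicle control. The part of cells of these kinds in the members' levels was not tested. Total counts were between 14760140 and 18212923 in the 4 libraries of the time course and between 11436808 and 25609600 over all 10.

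Reads behind the members were unevenly spread. Of the 257 members 180 were protein-coding, 47 had another RefSeq gene type and 30 had none. On day 2, 69 members had under 10 counts, and 60 of these were not annotated as protein-coding. Their median effective length was 45.3 bases, their median count 1.0 and their median level 3.04 TPM on day 2, the last against 10.34 TPM in the other members. The short ones reached high TPM from single reads. Mir8097, a microRNA gene, was listed at 63.9 TPM on day 2 from 0.99 counts, and Snora43, a small nucleolar RNA gene, at 44.1 TPM from 1.0 count. Both were listed at 0 in the vehicle control and on days 4 and 14, and neither level can be told from 0 at this depth. The other 188 members had at least 10 counts on day 2, with a median of 267.0 counts, and 171 of them were protein-coding. Their time course is described first.

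**Figure D1:**
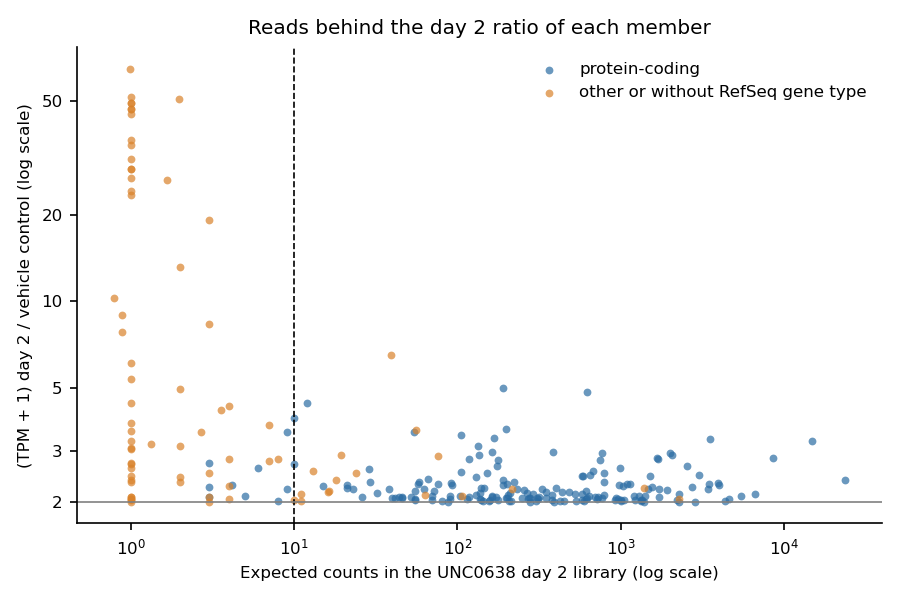
Each point is 1 of the 257 members. The x axis gives its expected counts in the UNC0638 day 2 library and the y axis its (TPM + 1) ratio of day 2 to vehicle control, both on log scales, with the dashed line at 10 counts and the grey line at the 2-fold threshold. Ratios above 10 are found only among the members left of the dashed line, and the highest ratio right of it is 6.50.

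In the 188 well-counted members the median TPM was 3.89 in the vehicle control and 10.3, 3.38 and 4.22 on days 2, 4 and 14. The median (TPM + 1) ratio of day 2 to control was 2.15. For 150 members it was under 2.5 and for 13 it was 3 or more. On day 4 the median ratio to control was 0.983, and 42 members stood below the control by more than the 1.3-fold limit. On day 14 the median was 1.08, and 18 members were below by that much, each of which was also below on day 4. These values chose the members and are a description. Just inside the day 2 threshold lay Rad50, Nup160 and Cnnm4 with ratios of 2.0018, 2.0029 and 2.0032, and just outside it lay Ep400, Aldh18a1 and Pigc with 1.9985, 1.9949 and 1.9929. At the day 4 limit Edrf1 was inside with 1.2989 and Spink2 outside with 1.3111. At the day 14 limit Glipr2 was inside with 1.2992 and Myo10 outside with 1.3066.

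**Figure D2:**
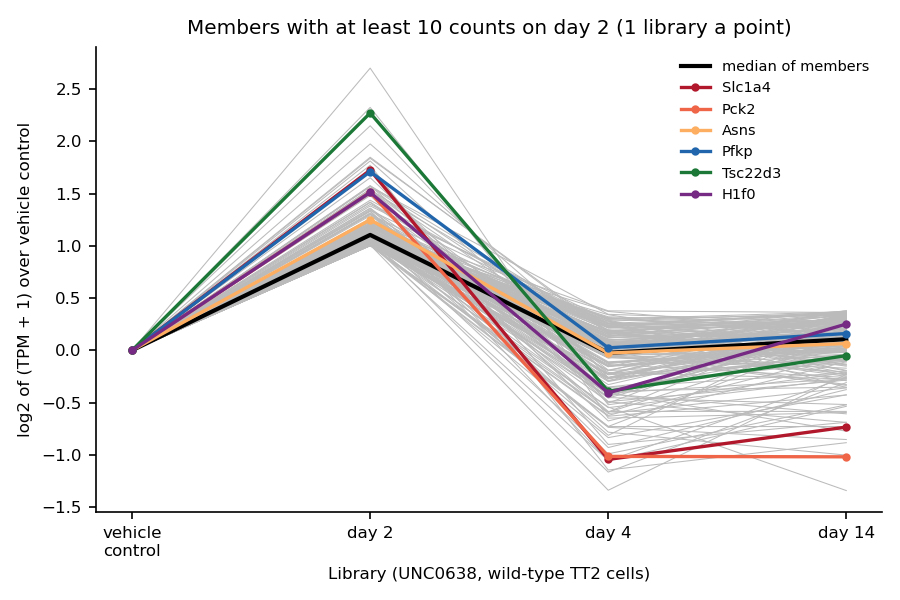
Each grey line is 1 of the 188 members with at least 10 counts on day 2. The y axis is the log2 of (TPM + 1) over the vehicle control, the x axis gives the 4 libraries in order, and each point is 1 library. The black line is the median, and the coloured lines show that Slc1a4 and Pck2 lay below the control on days 4 and 14, whereas Asns and Pfkp returned close to it.

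How large the day 2 difference was depended on the scale. Among genes reaching 10 CPM in 1 or both libraries, the median log2 difference between day 2 and the vehicle control was 0.20 in deposited TPM, 0.16 in CPM scaled by total count and -0.06 in CPM scaled by TMM factors, so TPM placed most genes higher on day 2. Applied to TMM-scaled CPM, the membership rule found 87 genes, of which 57 were among the 257. On the TMM scale the 176 members that reached 1 CPM in either library had a median log2(CPM + 1) difference of 0.89. Of these, 64 passed the size rule, which asks for a log2 difference of at least 1 and a counting interval that excludes 1, and 0 were called lower, where 3.12% of all measured genes were called higher and 1.84% lower. That count uses the contrast that chose the members and shows nothing about them. On day 4, 0 of 162 measured members were called higher than the control and 4 lower, where 1.95% and 0.671% of all measured genes were. On day 14, 0 of 164 were called higher and 3 lower, where 2.92% and 0.535% of all genes were. The rule set no limit on how low a member could be on these days. The lower ones on day 4 were Slc1a4, Pck2, Stc2 and Cpt1b, the last encoding an enzyme that takes part in fatty acid entry into mitochondria. Pck2 and Cpt1b were also lower on day 14, together with 1 gene without a symbol. Against day 2 itself, 0 of 176 measured members were higher and 76 lower on day 4, where 1.91% and 2.39% of all genes were, and 0 were higher and 66 lower on day 14, where 3.5% and 1.66% were. These contrasts also follow from the rule.

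Of the gene lists, the amino acid response held the most members. The list, from which the genes left out by name are missing, held 45 genes of the files, and 7 were members. For scale, members made up 1.31% of the 14396 genes with at least 10 counts on day 2, and the lists were drawn up with these results known, so no excess is read from the counts by list. The neutral amino acid transporter gene Slc1a4 (ENSMUSG00000020142.12, chromosome 11, 20302180 to 20332713, GRCm38.p6) stood at 20.8, 71.1, 9.58 and 12.1 TPM in the vehicle control and on days 2, 4 and 14. Its count ratio of day 2 to control was 2.84 (interval 2.63 to 3.06). The day 2 library was the highest of all 10 for Slc1a4, and both later libraries were lower than the control.

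Pck2 (ENSMUSG00000040618.6, chromosome 14, 55540263 to 55550020), which encodes the mitochondrial form of phosphoenolpyruvate carboxykinase, stood at 13.2, 39.4, 6.00 and 5.98 TPM in the same order, with a day 2 count ratio of 2.47 (interval 2.23 to 2.74). Stc2, which encodes the secreted glycoprotein stanniocalcin 2, followed the same course at 6.02, 16.7, 2.37 and 3.84 TPM. Each of these was lower than the control on both later days. Asns (ENSMUSG00000029752.12, chromosome 6, 7675165 to 7693209), which encodes the enzyme that makes asparagine, was the most abundant member, at 425, 1012, 417 and 445 TPM. Its day 2 count ratio was 2.00 (interval 1.95 to 2.06), and the later libraries stood next to the control.

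Gpt2, which encodes the mitochondrial alanine aminotransferase, stood at 39.1, 87.6, 27.5 and 23.9 TPM, and Gdf15, which encodes a secreted stress signal, at 2.12, 8.80, 1.22 and 1.56 TPM. Herpud1 (ENSMUSG00000031770.16, chromosome 8, 94386429 to 94395371), which encodes a membrane protein that helps to degrade misfolded proteins of the endoplasmic reticulum, stood at 56.3, 141, 29.1 and 43.1 TPM. Members outside the list followed a similar course. Pycr1, which encodes the last enzyme of proline synthesis, stood at 29.8, 86.0, 22.1 and 19.2 TPM, and the peptide hormone gene Adm2 at 2.23, 10.0, 0.46 and 0.75 TPM. For all of these the day 2 library was the highest of the 4 and day 4 was under the control. Gpt2 had a day 2 count ratio of 1.91 (interval 1.79 to 2.04) and was not called higher.

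The genes of the list that are not members had smaller ratios of the same order. Of the 35 with at least 1 TPM, 30 were above the control on day 2, with a median ratio of 1.52, and 30 and 31 were under it on days 4 and 14. Among the 42 genes of the whole list with at least 1 TPM in the day 2 or control library, 37 were above the control on day 2, 37 were under it on day 4 and 37 were under it on day 14 (88.1% each). Over the 14396 genes with at least 10 counts on day 2 these shares were 72.7%, 48.2% and 37.1%. The median ratios to control were 1.59, 0.773 and 0.782 on days 2, 4 and 14, against 1.17, 1.01 and 1.06 over those 14396 genes. Atf4 itself stood at 176, 311, 98.0 and 123 TPM in the vehicle control and on days 2, 4 and 14. In TMM-scaled CPM, 7 of 43 measured genes of the list were called higher and 0 lower on day 2. Over all measured genes these shares were 3.12% and 1.84%. Of the 7, all but Vldlr are members, which this contrast chose. On day 4, 0 were called higher and 4 lower, where 1.95% and 0.671% of all measured genes were. Of the 4, all but Slc6a9 are members. The list was drawn up with results of these libraries known, so its course is not independent evidence.

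Promoters of some of these genes hold a known short sequence, shown here because it was not used to choose members. RefSeq windows from 250 bases before to 50 bases after the start (GRCm38.p6) were found for 136 of the 171 well-counted protein-coding members. The core of the amino acid response element bound by ATF4 and its partners, TGATGNAA on either strand, lay in windows of 12 of the 136 genes (8.8%). It lay in windows of 282 of 10538 protein-coding genes with at least 10 counts on day 2 (2.7%) and in 4.0% of all 32851 windows. The 12 genes were Arl14ep, Asns, Eef2k, Herpud1, Lrriq4, Ncapd3, Pck2, Phyh, Pycr1, Sgms2, Slamf9 and Slc1a4, and in Slc1a4 the match reached past the start. None of the 12 matches overlapped the octamer. The stretches around the match before the start of 4 members with roles in amino acid metabolism or stress (Pycr1 is not on the list) are given 5′ to 3′ on the strand of the gene, with the match in capitals.
Asns, chr6:7693210-7693272, minus strand: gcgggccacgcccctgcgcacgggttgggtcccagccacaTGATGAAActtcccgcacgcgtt
Pycr1, chr11:120643804-120643891, minus strand: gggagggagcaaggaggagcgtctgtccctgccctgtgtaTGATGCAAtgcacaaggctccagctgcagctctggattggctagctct
Pck2, chr14:55540123-55540210, plus strand: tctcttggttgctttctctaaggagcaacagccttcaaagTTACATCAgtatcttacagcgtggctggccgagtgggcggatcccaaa
Herpud1, chr8:94386277-94386364, plus strand: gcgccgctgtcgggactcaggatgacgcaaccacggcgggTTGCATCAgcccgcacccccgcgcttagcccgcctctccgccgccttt

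The match starts 23 bases before the start in Asns (position -23), and at -103, -103 and -112 in Pycr1, Pck2 and Herpud1. In Pck2 and Herpud1 it reads in reverse on the strand shown. Among the other motifs searched on both strands, the Oct octamer ATGCAAAT lay in 6 of 136 member genes (4.4%), against 1.7% of the protein-coding genes. The ETS core CCGGAAG lay in 13 (9.6%), against 19.7% of the protein-coding genes, and in 8.9% of all windows. The hypoxia response core ACGTG lay in 43 (31.6%), against 29.2%, and the E-box CACGTG in 17 (12.5%), against 11.9%. The TATA box TATAAA lay in 12.5%, against 8.7%, the TEAD core GGAATG in 26 of the 136 genes, against 14.3%, and the GC box GGGCGG in 74.3%, against 69.0%. The CCAAT box lay in 46.3%, against 43.5%, the heat shock pair TTCNNGAA in 8.8%, against 8.0%, and the AP-1 site TGANTCA in 7.4%, against 5.9%. The cAMP response element TGACGTCA lay in 3.7%, against 3.5%. The NRF1 core GCATGCGC lay in 3.7%, against 6.0%, and the YY1 core AAGATGGC in 2.9%, against 5.2%. CACGTG holds ACGTG, so these matches overlap. A match is a description of letters in a window, not a bound site.

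The list of the hypoxia response and glycolysis held 53 genes, of which 4 were members, 3 of them genes of glycolytic enzymes. Pfkp (ENSMUSG00000021196.14, chromosome 13, 6579874 to 6649060), which encodes the platelet form of phosphofructokinase, stood at 109, 358, 111 and 122 TPM in the vehicle control and on days 2, 4 and 14, and its day 2 count ratio was 2.93 (interval 2.82 to 3.04). Aldoc, which encodes aldolase C, stood at 29.0, 73.0, 21.3 and 32.7 TPM, and Eno2, which encodes an enolase best known from neurons, at 1.83, 9.18, 2.16 and 2.13 TPM. The hormone gene Stc1 stood at 0.22, 2.54, 0.07 and 0.42 TPM. Outside the list, the phosphoglucomutase gene Pgm1 stood at 24.0, 71.9, 16.6 and 31.0 TPM. In each of these the day 2 library was the only one of the 4 set apart.

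Other genes of this list were above the day 14 limit that the rule sets for a member. In TMM-scaled CPM, 10 of 50 measured genes of the list were called higher on day 2 and 0 lower. Over all measured genes these shares were 3.12% and 1.84%. Besides the members, those called higher were Adm, Ak4, Plod2, Ppfia4, P4ha2 and Ero1l, whose day 14 ratios to the control lay between 1.305 and 2.45, above the limit for members. On day 4 Adm, Plod2 and Ero1l stood at 0.842, 0.997 and 1.01 times the control. Ak4, P4ha2 and Ppfia4 stood at 1.57, 1.37 and 1.37 times the control on that day. Adm and Ak4 were also called higher on day 14. Over the 50 genes of the list with at least 1 TPM, the median ratio to control was 1.65 on day 2, 0.934 on day 4 and 1.12 on day 14, and 36 and 15 of the 50 genes were under the control on days 4 and 14, where 48.2% and 37.1% of the 14396 genes were. On day 2, 49 of the 50 were above the control (98.0%), where 72.7% of the 14396 genes and 88.1% of the amino acid response list were.

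**Figure D3:**
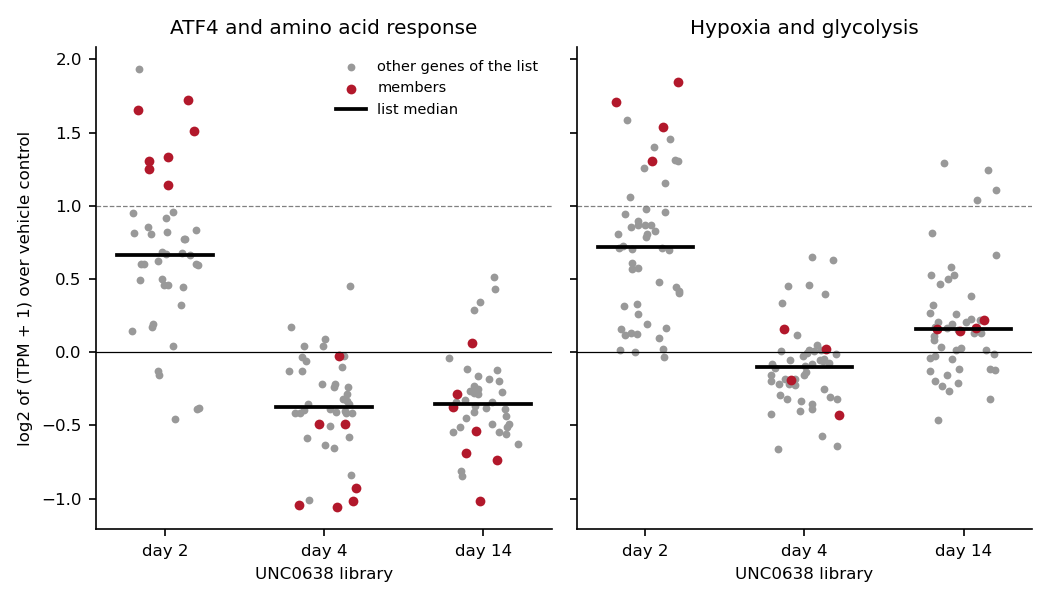
Each point is 1 gene of the amino acid response list (left, 42 genes) or of the hypoxia and glycolysis list (right, 50 genes) with at least 1 TPM in the day 2 or control library. The y axis is the log2 of (TPM + 1) over the vehicle control in each UNC0638 library, red points are members, and black bars are list medians. The left medians lie below 0 on days 4 and 14, and the right median lies below 0 on day 4 and above 0 on day 14.

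Chromatin and transcription factor genes were among the abundant members. H1f0 (ENSMUSG00000096210.1, chromosome 15, 79028212 to 79030504), which encodes the linker histone H1.0, stood at 108, 311, 81.4 and 129 TPM, with a day 2 count ratio of 2.36 (interval 2.25 to 2.46). Kdm4c, which encodes a demethylase of histone H3 lysine 9, stood at 12.1, 28.1, 11.7 and 13.3 TPM, and was the only member among 24 listed genes of H3K9 methylation and demethylation. On the TMM scale its day 2 log2 difference was 0.91, under the size rule. The targeted genes were not members. Ehmt2 stood at 42.6, 40.1, 42.0 and 36.6 TPM and Ehmt1 at 19.8, 28.8, 17.2 and 21.0 TPM, and an inhibitor of the enzymes need not change either.

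Tsc22d3 (ENSMUSG00000031431.13, chromosome X, 140539528 to 140600522), which encodes the glucocorticoid-induced leucine zipper protein, stood at 5.05, 28.2, 3.61 and 4.84 TPM, with a day 2 count ratio of 4.74 (interval 3.80 to 5.98). G0s2, which encodes an inhibitor of fat breakdown, stood at 3.85, 23.3, 2.38 and 3.18 TPM and had the largest (TPM + 1) ratio of day 2 to control, 5.01, among the named protein-coding members with at least 5 TPM on day 2. Both stood out on day 2 and lay below the control on the later days. Klf10 and Klf11, which encode Krüppel-like factors induced by TGF-beta, stood at 68.7, 145, 53.5 and 59.0 TPM and at 5.95, 15.3, 6.25 and 5.51 TPM. Nfe2l1, which encodes a factor that drives proteasome genes, stood at 37.2, 87.6, 34.0 and 38.8 TPM. The day 2 count ratios of Klf10 and Nfe2l1 were 1.74 (interval 1.66 to 1.83) and 1.78 (interval 1.67 to 1.89), and neither was called higher.

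Other lists held at most 2 members each. Socs3, the feedback inhibitor of the JAK and STAT pathway that LIF signals through, stood at 72.2, 149, 81.5 and 65.4 TPM, and Stat2, a transducer of interferon signals, at 6.68, 15.2, 4.76 and 7.42 TPM. They were the only members among 46 listed inflammation and interferon genes. The cholesterol exporter gene Abcg1 and the fatty acid desaturase gene Scd2 were 2 members of 33 listed genes of sterol and fatty acid synthesis, at 4.56, 12.7, 4.50 and 3.43 TPM and at 24.5, 57.1, 25.1 and 24.2 TPM. Wipi1, which encodes a protein of the forming autophagosome, and Hexa, which encodes a subunit of lysosomal hexosaminidase, were 2 of 40 lysosome and autophagy genes. Wipi1 stood at 3.93, 13.7, 4.60 and 5.07 TPM. Of the 37 listed targets of p53 only the epoxide hydrolase gene Ephx1 was a member, of 37 imprinted genes only Grb10, and of 48 immediate early genes only Klf10. On the TMM scale Socs3, Stat2, Scd2, Hexa and Ephx1 were not called higher on day 2, with log2 differences of 0.76, 0.96, 0.94, 0.80 and 0.75. No member was found in the lists of naive or primed pluripotency, primitive endoderm, trophoblast, mesoderm, neural lineage, 2-cell stage, germline, cell cycle, unfolded protein or oxidative stress genes. The lists of TGF-beta, BMP, Wnt and Notch targets, extracellular matrix, circadian genes and small nucleolar RNA hosts held none either. These absences depend on how genes were assigned to lists. Members made up only 1.31% of the 14396 genes, so nothing is read from a list that holds none. The 2-cell list had 5 of 8 measured genes called higher on day 2, where 3.12% of all measured genes were. The same 5 were also called higher on days 4 and 14, where 1.95% and 2.92% were, and the rule leaves out genes that stay high. Herpud1 was placed with the amino acid response and Klf10 with the immediate early genes, and Klf11 was on no list.

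WT TT2, a second library of wild-type TT2 cells without the inhibitor, differed from the vehicle control in many genes. The stem cell marker Pou5f1 stood at 435 to 557 TPM in the 4 time course libraries and at 7.61 to 33.1 TPM in the 6 untreated ones. Nanog stood at 102 TPM in the vehicle control and at 135 TPM in WT TT2. Klf4, Sox2, Sall4 and Dppa5a were also higher in WT TT2, whereas Esrrb, Tdgf1, Utf1 and Zfp42 were lower. The 10 stem cell markers summed to 10871 TPM in the vehicle control and to 10789 TPM in WT TT2. What sets the time course apart from the untreated libraries was not tested, and comparisons of day 2 with those libraries include that difference. Among the 188 members, WT TT2 was at least 2-fold higher than the vehicle control (TPM + 1) for 34 and at least 2-fold lower for 28, where 11.7% and 26.1% of the 14396 genes were. Day 2 was at least 2-fold higher than WT TT2 for 115 of the 188, where 33.0% of the 14396 genes were, and at least 2-fold lower for 6, where 8.5% were. WT TT2 stood above day 2 for 25 members. Examples are Tet1, which encodes an enzyme that oxidises methylated cytosine, at 23.6 TPM on day 2 and 62.3 TPM in WT TT2, and Prelid2 at 123 TPM on day 2 and 188 TPM in WT TT2. The polyamine catabolism gene Sat1 stood at 108 TPM on day 2, against 166 TPM in WT TT2 and 887 TPM in WT J1. For 140 of the 188 the day 2 library was the highest of the 10, and for 54 it was so by at least 2-fold. Shares over all genes were not computed for these counts or for the 25 above, so no trait of the members is read from them. Day 2 was the highest of the 4 time course libraries for 7772 of the 14396 genes. Among named members with a symbol and at least 10 counts on day 2, the clearest margins were those of Adm2, Slc1a4, Eno2 and Gdf15. Their (TPM + 1) on day 2 was 3.41, 3.30, 3.22 and 3.14 times the next highest library, a choice made after their values were seen. The vehicle control and day 2 libraries chose the members, so these counts are a description.

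**Figure D4:**
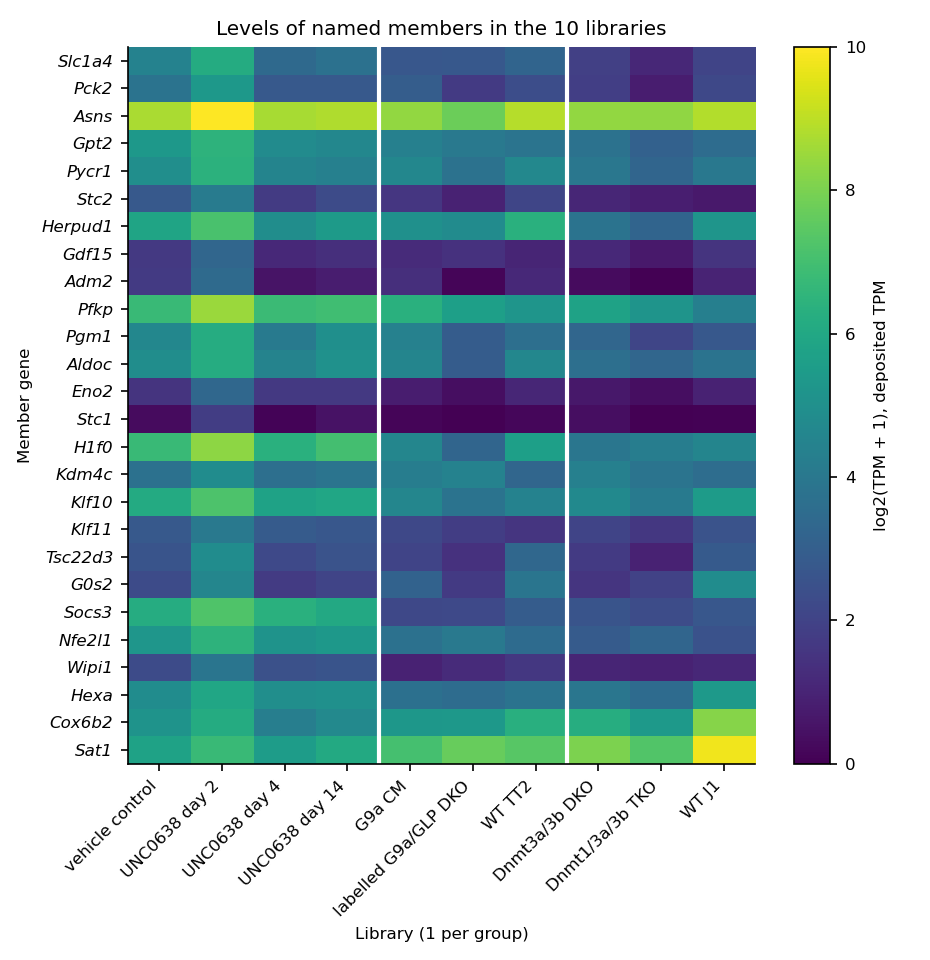
The colour gives log2(TPM + 1) of 26 named members (rows) in the 10 libraries (columns), with white lines between the time course, the TT2 lines and the J1 lines. Asns, Pfkp and H1f0 are brightest on day 2, whereas Sat1 and Cox6b2 are brightest in WT J1.

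The 6 untreated libraries were not used by the rule, and all 257 members were followed there. In G9a CM, Ehmt2 stood at 22.2 TPM, against 10.1 TPM in WT TT2, and whether transgene reads are counted in it was not tested. In the library labelled G9a/GLP DKO, Ehmt2 stood at 13.01 TPM and Ehmt1 at 6.71 TPM, against 10.1 and 23.9 TPM in WT TT2, so the Ehmt2 level does not check its label. Members were called lower in each mutant library than in its wild type more often than all genes were, and called higher less often, except that with no minimum level 1.56% of all members were called higher in G9a CM, against 1.39% of all genes. In G9a CM against WT TT2, 4 of 174 measured members were higher and 21 lower, where 5.4% and 5.07% of all measured genes were. In the library labelled G9a/GLP DKO against WT TT2, 4 of 177 were higher and 31 lower, where 9.77% and 7.09% of all genes were. These comparisons share the WT TT2 library. The medians of the members' log2 differences were -0.27 and -0.39, against -0.03 and 0.04 over all measured genes.

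In Dnmt3a/3b DKO against WT J1, 4 of 173 members were higher and 48 lower, where 9.23% and 9.89% of all genes were. In Dnmt1/3a/3b TKO against WT J1, 4 of 176 were higher and 59 lower, where 11.0% and 10.6% of all genes were, and both comparisons share the WT J1 library. The members' medians were -0.49 and -0.67, against 0.01 and -0.02 over all genes. Among genes with at least 5 CPM in the wild type, the shares of members called lower were 13.5%, 22.1%, 33.3% and 38.3% in the same order of mutants, against 5.62%, 8.3%, 11.4% and 12.7% of all such genes. By deposited TPM with no counting interval, the counts were 13 higher and 22 lower, 22 and 34, 9 and 37, and 12 and 46. In that setting 7.1% of members were higher in G9a CM, and the library labelled G9a/GLP DKO had 11.6%, close to the 7.65% and 12.7% of all genes. The higher shares were 5.08% and 6.78% in the Dnmt mutants, against 15.8% and 17.5% of all genes. The lower shares of members were 12.0%, 17.9%, 20.9% and 26.0%, against 4.95%, 6.32%, 6.17% and 6.48% of all genes.

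**Figure D5:**
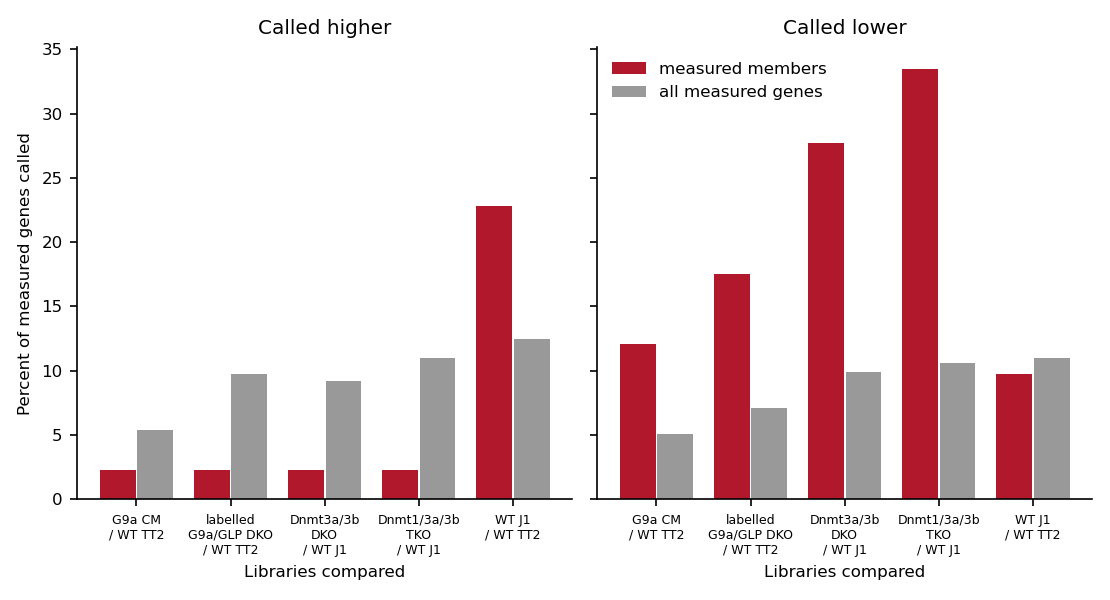
Bars give the percent of measured members (red) and of all measured genes (grey) called higher (left) or lower (right) by the size rule in 5 comparisons of untreated libraries. Red bars exceed grey ones on the right for the 4 mutants and on the left for WT J1 against WT TT2.

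In G9a CM the members furthest below WT TT2 included Slc11a1, which encodes a metal transporter of endosomes, at 2.36 CPM against 9.95 CPM in WT TT2, and Tsc22d3 at 5.13 CPM against 16.6 CPM. Glipr2 stood higher, at 160 CPM in G9a CM against 61.4 CPM in WT TT2 (2.61-fold, interval 2.45 to 2.78), and so did the noncoding RNA Platr7, at 18.1 against 4.33 CPM. The linker histone gene H1f0 was lower than WT TT2 in the library labelled G9a/GLP DKO, at 15.9 CPM against 106.5 CPM in WT TT2 (6.70-fold lower, interval 5.81 to 7.77). The noncoding RNA Lockd stood at 2.20 against 31.7 CPM and Asns at 329 against 890.4 CPM (2.71-fold lower, interval 2.62 to 2.80). The noncoding RNA Platr5 was higher there, at 29.4 CPM against 3.97 CPM in WT TT2.

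In Dnmt3a/3b DKO, G0s2 stood at 1.31 CPM against 25.8 CPM in WT J1 (19.7-fold lower, interval 12.8 to 31.7), and the small heat shock protein gene Hspb2 at 3.47 against 34.8 CPM. Pfkp went the other way, at 160.7 CPM in Dnmt3a/3b DKO against 79.7 CPM in WT J1 (2.02-fold higher, interval 1.88 to 2.16). In Dnmt1/3a/3b TKO, Cox6b2, which encodes a testis form of a cytochrome oxidase subunit, stood at 13.8 CPM against 135 CPM in WT J1 (9.81-fold lower, interval 8.60 to 11.2). Slc1a4 and Pck2 were lower there too, at 4.44 against 15.7 CPM and at 2.52 against 15.0 CPM.

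Herpud1, picked here after its values were seen, stood at 49.1 CPM in G9a CM and 39.7 CPM in the library labelled G9a/GLP DKO, against 134 CPM in WT TT2. It stood at 22.5 CPM in Dnmt3a/3b DKO and 14.6 CPM in Dnmt1/3a/3b TKO, against 79.9 CPM in WT J1. Of the 7 members from the amino acid response list, the numbers called lower were 1, 3, 1 and 4 in G9a CM, the library labelled G9a/GLP DKO, Dnmt3a/3b DKO, plus Dnmt1/3a/3b TKO, and none was called higher in any of these. Among the other measured genes of that list 3 of 34, 4 of 34, 6 of 33 and 9 of 33 were called lower and 0, 0, 0 and 1 higher. Of the 4 glycolysis members, the library labelled G9a/GLP DKO had Eno2 and Aldoc called lower, and Eno2 was called lower in Dnmt1/3a/3b TKO, while Pfkp was called higher in Dnmt3a/3b DKO. The other measured genes of that list had 7 higher and 1 lower of 44 in G9a CM, 1 and 3 of 44 in the library labelled G9a/GLP DKO, 13 and 1 of 46 in Dnmt3a/3b DKO, then 8 and 4 of 46 in Dnmt1/3a/3b TKO. Over all measured genes, 5.07%, 7.09%, 9.89% and 10.6% were called lower in the same 4 mutants, and 5.4%, 9.77%, 9.23% and 11.0% higher. Some of the counts for both lists are near these shares, so no result about the lists is read from them. Stc1 reached 1 CPM only in Dnmt3a/3b DKO among the untreated libraries.

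Between the wild types, WT J1 had 42 of 184 measured members higher and 18 lower than WT TT2, where 12.5% and 11.0% of all measured genes were. By deposited TPM with no counting interval the counts were 39 and 31 (20.7% and 16.5%), against 8.56% and 19.2% of all genes. Fxyd6, which encodes a regulator of the sodium pump, stood at 117 CPM in WT J1 against 8.65 CPM in WT TT2 (13.6-fold higher, interval 11.8 to 15.7), and Sat1 at 1163 against 169 CPM. Cnnm4, which encodes a magnesium transporter, stood at 5.10 CPM in WT J1 against 25.4 CPM in WT TT2, and Dhrs7, which encodes a dehydrogenase, at 33.7 against 131 CPM. The strain and the line cannot be told apart here.

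Some members lie near each other in the genome. Within 100000 bases of each other lay 9 pairs, among them Pycr1 and Myadml2, Tbc1d9b and Mrnip, and Nfe2l1 and Copz2, all on chromosome 11. Slc39a11 overlaps Sstr2 there. The widest gap was 91674 bases, between Adm2 and Cpt1b on chromosome 15. Such pairs were not counted over all genes, so no clustering of members is read from them. No source used here states the strand setting of the counting, and reads of overlapping genes on opposite strands may then be mixed.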

How the data were processed

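Per the labels' protocols, total RNA of mouse embryonic stem cells was made into Smart-seq2 libraries. STAR 2.5.3a, RSEM and the build GRCm38 are named in the submitters' processing notes. The deposited expected counts share out reads that match several genes, and the deposited TPM values are scaled for effective length and library total, per the file headers. No source used here gives the annotation release.

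Symbols were found for 52403 of 52550 gene IDs. Expected counts were rounded and scaled to CPM with TMM factors from edgeR 4.0.16, and DESeq2 1.42.0 gave size factors for an alternative. Differences are log2(CPM + 1). A gene was called higher or lower when the difference was at least 1, either library had at least 1 CPM, and 1 lay outside the count ratio's 95% interval, exact and binomial given the summed count (Clopper-Pearson). The depth puts 3 counts at 0.118 to 0.236 CPM.

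The members, the 24 gene lists, the motifs and the tests were chosen with earlier results of these data known. Named genes were the most abundant members, those with the largest ratios, up to 4 per list, and the largest calls in the untreated comparisons, with other choices stated. The 120 other samples of the series were not analysed here.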

Additional observations from a re-analysis of the deposited data

How the results depend on the processing

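Membership depended on the scale and the thresholds. Against 257 members, the rule gave 1113 genes with 0.1 TPM added and 66 with 5 TPM added, 87 in TMM-scaled CPM (57 of them members), 1665 at 1.5-fold and 52 at 3-fold on day 2, and 150 with later days under 1.1 times the control. In CPM scaled by total count it gave 187 genes, of which 97 were members. Asking for at least 10 counts left 188 and asking for a counting interval above 1 left 175. With deposited TPM, 13 members were called higher in G9a CM (7.1%, against 7.65% of all genes), 22 in the G9a/GLP DKO-labelled library (11.6% against 12.7%), 9 for Dnmt3a/3b DKO (5.08% against 15.8%) and 12 for Dnmt1/3a/3b TKO (6.78% against 17.5%), and 31 were called lower in WT J1 (16.5% against 19.2%). With 0.1 CPM added, 8 were called higher in G9a CM (4.6% against 8.93%) and 9 in Dnmt1/3a/3b TKO (5.11% against 15.2%), and the G9a/GLP DKO-labelled library had 15 higher (8.47% against 14.1%) and 50 lower (28.2% against 10.5%). Total count scaling gave 7 higher there (3.95% against 12.4%). The causes were not tested. Under every one of the 5 alternatives the share of members called lower exceeded that of all genes in each of the 4 mutants. The share called higher was below that of all genes in each, except in G9a CM with no minimum (1.56% against 1.39%). No paired analysis was possible because each RNA group has 1 library. The depth of 11436808 to 25609600 counts cannot resolve the 69 members under 10 counts.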
